A study of Mus musculus with 18 samples.

Results

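The genes described here are 10 cell cycle genes whose products decide when a cell enters mitosis, and their transcripts were followed in mouse cardiomyocytes sorted by number of nuclei. They are the cyclins Ccna2, Ccnb1 and Ccnb2, the kinase Cdk1, the inhibitory kinases Wee1 and Pkmyt1, the phosphatases Cdc25a, Cdc25b and Cdc25c, and the kinase Plk1. The members were taken by name after Ensembl identifiers had been matched to symbols. All 10 were measured, among 12048 genes. All groups share the Mlc2vcre:R26REYFP genotype: the ventricular Mlc2v gene drives Cre, and Cre turns on an EYFP reporter at R26R, so the labelled cells are those with Mlc2v activity. Fluorescence-activated sorting separated the cells by number of nuclei, and the labels do not state how that number was read. The labels give 6 groups, mononucleated and binucleated cardiomyocytes at E18.5 (before birth), at P7 (postnatal day 7) and in the adult, with 3 libraries in each group and 18 in all. The sources do not state the exact age of the adults, or whether a library came from 1 animal or from pooled hearts. By its title, the series asks what underlies the different capacity of the classes to proliferate.

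Cyclin A2 and the B cyclins are the regulatory partners of Cdk1, and the complex of Cdk1 with cyclin B drives chromosome condensation, breakdown of the nuclear envelope and assembly of the spindle. Until a cell is ready, Wee1 in the nucleus and Pkmyt1 (Myt1) at membranes hold Cdk1 inactive by phosphorylating it, and the Cdc25 phosphatases take these phosphates off. Plk1 feeds into the same switch by acting on Cdc25 and Wee1. In the mouse heart, cardiomyocytes divide before birth, many complete a further round in the first postnatal week without separating and so become binucleated, and nearly all have left the cell cycle in the adult.

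Total recovered counts ran from 14833334 to 22690952 per library. Of 12 listed cardiomyocyte markers 11 were measured, and their summed level lay between 33950 and 61940 CPM (counts scaled to library size) in every library. Binucleated E18.5 replicate 1 had the lowest total and stood apart from its group, with a correlation to the other 2 libraries of 0.884 and 0.896 across genes. Markers of other cell types were higher in the binucleated E18.5 libraries. There 6 of 11 fibroblast, 6 of 12 endothelial and 5 of 6 leukocyte markers passed the test, against 0.739% of all genes called higher. The summed fibroblast markers were at 86.4 to 130.2 CPM in mononucleated and 389 to 985 CPM in binucleated E18.5 libraries. The summed endothelial markers were at 17.4 to 36.0 CPM against 69.6 to 138.7 CPM, and the leukocyte markers at 2.37 to 3.16 CPM against 14.4 to 39.0 CPM. The leukocyte genes Laptm5, C1qb and C1qc were at 0 in all mononucleated E18.5 libraries, and none of the measured markers of these 3 lists was at 0 throughout the binucleated group. The 4 epicardial markers summed to 4.74 to 9.34 CPM against 23.7 to 25.5 CPM and the 5 erythroid ones to 38.5 to 67.3 CPM against 101.3 to 176.8 CPM, with none called in either list. Of 7 pericyte and smooth muscle markers 1 was called higher, and their sums overlapped. The part of these cells in the results at E18.5 was not tested. In bulk libraries, fewer cells that transcribe a gene and less RNA per cell cannot be told apart.

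Genes of the mitotic entry switch are known to be transcribed through CCAAT boxes and the cell cycle genes homology region (CHR), read by NF-Y and by the MuvB complex with B-Myb and Foxm1. Promoter windows from RefSeq on GRCm38.p6, with 250 bases before and 50 after each gene's start, were matched for 6 of the 10 members: Ccnb1, Ccnb2, Cdk1, Cdc25a, Cdc25b and Plk1. Ccna2, Wee1, Pkmyt1 and Cdc25c had no entry. The 4 upstream stretches printed here set 3 genes left with 23 reads or fewer in each adult library (Ccnb2, Cdk1 and Plk1) beside 1 with 138 or more (Cdc25a). They are written 5′ to 3′ on the gene's strand, and capitals mark CCAAT and the CHR spellings TTTGAA and TTTAAA on either strand. Cdk1 is shown without the last 26 bases before its start, where a GENCODE transcript begins.
Ccnb2 (chr9:70421555-70421804, minus strand): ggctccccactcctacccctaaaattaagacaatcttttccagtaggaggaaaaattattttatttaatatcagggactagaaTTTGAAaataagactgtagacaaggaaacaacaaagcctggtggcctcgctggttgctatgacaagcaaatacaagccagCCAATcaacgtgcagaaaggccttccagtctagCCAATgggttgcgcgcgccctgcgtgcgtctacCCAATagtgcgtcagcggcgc
Cdk1 (chr10:69352939-69353162, minus strand): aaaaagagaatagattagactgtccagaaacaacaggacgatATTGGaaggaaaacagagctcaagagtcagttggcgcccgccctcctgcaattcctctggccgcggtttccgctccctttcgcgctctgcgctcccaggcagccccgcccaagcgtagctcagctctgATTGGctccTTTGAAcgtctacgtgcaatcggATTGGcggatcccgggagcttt
Plk1 (chr7:122159185-122159434, plus strand): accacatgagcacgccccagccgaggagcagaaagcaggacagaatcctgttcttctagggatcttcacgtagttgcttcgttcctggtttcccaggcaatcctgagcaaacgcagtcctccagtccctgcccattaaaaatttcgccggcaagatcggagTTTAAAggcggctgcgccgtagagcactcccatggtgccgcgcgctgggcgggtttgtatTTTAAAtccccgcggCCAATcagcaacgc
Cdc25a (chr9:109875329-109875578, plus strand): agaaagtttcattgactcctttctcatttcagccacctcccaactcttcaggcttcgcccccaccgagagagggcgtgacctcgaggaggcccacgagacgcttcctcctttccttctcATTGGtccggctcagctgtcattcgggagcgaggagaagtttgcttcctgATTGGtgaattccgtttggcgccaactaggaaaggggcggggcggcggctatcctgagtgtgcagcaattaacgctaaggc

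All 6 windows held a CCAAT within the 250 bases before the start, a sequence found on either strand in 33.8% of all 32851 promoter windows of that length. At least 2 copies lay in 4 of the 6 (Ccnb1, Ccnb2, Cdk1 and Cdc25a), against 10.1% of all windows. In Ccnb2 the 3 copies began 87, 54 and 21 bases before the start, and in Cdk1 the 3 began 208, 80 and 48 bases before it. TTTGAA occurred in Cdk1, at 71 and 15 bases before the start (the nearer copy lies in the stretch not shown), and in Ccnb2, at 167 bases, and in 16% of all windows. With the 50 bases after the start included, Ccnb2 held a further copy and Plk1 held one, so that 3 of 6 members had TTTGAA, against 17.9% of all windows. TTTAAA occurred in Plk1, at 89 and 29 bases, and in Ccnb1, at 42 bases, and in 12.1% of all windows. A GENCODE transcript of Ccnb1 begins 84 bases before the start. Its TTTAAA and the nearer of its 2 CCAAT copies, at 67 bases, lie after that point. Neither CHR spelling was found in the Cdc25a or Cdc25b window of either length. Cdc25b, whose stretch is not printed, was left with 1 to 15 reads in each adult library. A link between these motifs and adult levels was not tested. The spelling TTTGGCGC, known from E2f sites, was found 67 bases before the start of Cdc25a and in 0.417% of all windows. GGGAAA was found in Plk1 and in 21.9% of all windows, and TTCCCGCC in none of the 6 and in 1.86% of all. All motifs were searched on both strands, and a match is a description of letters, not of a bound site.

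Corrected for exon length, the B and A cyclins were the most abundant of the 10 transcripts at E18.5. Ccnb2 stood at 52.6 CPM per kilobase of exon in mononucleated and 110.0 in binucleated cells. Ccna2 stood at 37.6 and 70.7 and Ccnb1 at 27.5 and 75.1, so that Ccna2 was above Ccnb1 in mononucleated and below it in binucleated cells. On this scale Ccnb2 lay above 92.0% of all genes in mononucleated and 96.0% in binucleated E18.5 cells. Plk1 came next, at 16.6 and 32.1 CPM per kilobase, then Cdk1 at 13.6 and 23.1. Wee1, Cdc25b, Cdc25a, Cdc25c and Pkmyt1 all lay between 3.01 and 12.3 CPM per kilobase. In the adult the order was another: Wee1 led at 6.24 and 7.26 CPM per kilobase, Cdc25a followed at 1.44 and 1.61, and each of the other 8 members was below 0.45.

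**Figure D1:**
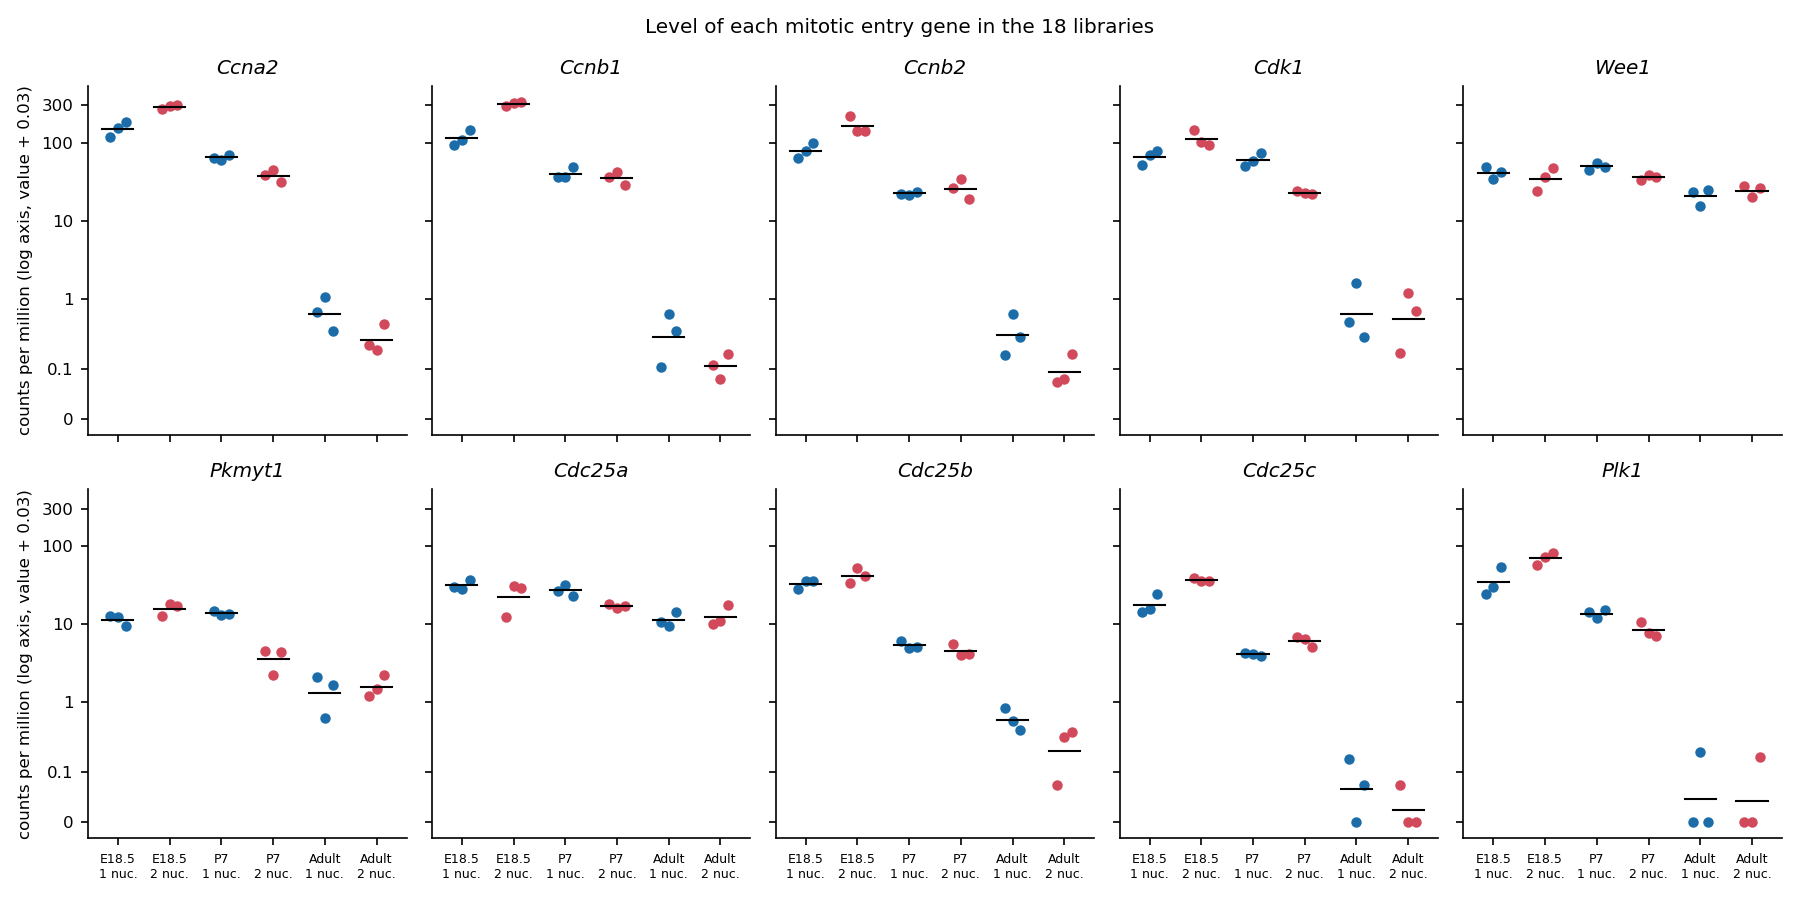
CPM (counts scaled to library size) of each gene in the 18 libraries, on a log axis of the value plus 0.03 so that 0 can be drawn. Points are libraries (blue, mononucleated, 1 nuc.; red, binucleated, 2 nuc.) and black bars are means on the drawn scale. Ccna2, Ccnb1, Ccnb2, Cdk1, Cdc25c and Plk1 stood highest in binucleated E18.5 cells and near 0 in the adult, while Wee1 and Cdc25a stayed above 9 CPM in every library.

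Ccna2 encodes cyclin A2, which acts in S phase and at the start of mitosis. Its level was 119.8, 155.2 and 185.8 CPM in mononucleated E18.5 libraries (154 ± 33.0, SD, n = 3) and 267, 295 and 304 CPM in binucleated ones (289 ± 19.2, SD, n = 3). The P7 libraries held 64.3, 60.3 and 70.8 CPM in mononucleated and 39.2, 44.5 and 32.0 CPM in binucleated libraries. The order of the classes was thus binucleated above mononucleated at E18.5 and mononucleated above binucleated at P7, with no overlap between libraries at either age. In the adult it gave 33 reads over the 3 mononucleated and 15 over the 3 binucleated libraries.

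Ccnb1 and Ccnb2 encode the mitotic cyclins B1 and B2. Ccnb1 was at 94.6, 107.8 and 145.4 CPM in mononucleated E18.5 libraries and at 297, 321 and 332 CPM in binucleated ones. Its P7 level was 37.0, 36.3 and 49.3 CPM in mononucleated and 36.7, 42.3 and 29.3 CPM in binucleated libraries. The classes did not overlap at E18.5 and did so at P7. Ccnb2 was at 63.3, 78.7 and 99.5 CPM in mononucleated E18.5 libraries and at 223, 142.6 and 139.9 CPM in binucleated ones. The highest of these was the library that stood apart, and the other 2 still lay above all mononucleated libraries. At P7 Ccnb2 was at 22.3, 21.7 and 23.7 CPM in mononucleated and 26.2, 34.6 and 19.4 CPM in binucleated libraries, which overlapped.

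Cdk1, the catalytic partner of these cyclins, was at 52.0, 70.3 and 79.6 CPM in mononucleated and 146.7, 102.8 and 92.5 CPM in binucleated E18.5 libraries. The highest of these values, 146.7 CPM, belonged to the library that stood apart. One week after birth Cdk1 was at 50.8, 58.7 and 73.4 CPM in mononucleated and 24.0, 22.8 and 22.1 CPM in binucleated libraries. Mononucleated cells had overlapping Cdk1 levels at the 2 younger ages, while the binucleated P7 libraries lay below every library of the other 3 groups of E18.5 and P7. Adult Cdk1 summed to 37 reads in mononucleated and 33 in binucleated libraries, with single libraries between 3 and 23 reads.

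The inhibitory kinases did not follow the same course as each other. Wee1 was at 49.0, 34.5 and 43.0 CPM in mononucleated and 24.1, 36.9 and 47.7 CPM in binucleated E18.5 libraries. Its P7 libraries were at 44.8, 55.6 and 49.8 CPM against 34.0, 39.2 and 36.5 CPM, and in the adult at 23.5, 15.6 and 24.98 CPM against 28.0, 20.3 and 26.1 CPM. All neighbouring groups in the order of Wee1 levels overlapped, from mononucleated P7 (50.1 ± 5.40 CPM, SD, n = 3) down to mononucleated adult cells (21.3 ± 5.07 CPM, SD, n = 3). Pkmyt1 was at 12.6, 12.3 and 9.57 CPM in mononucleated and 12.7, 18 and 17.2 CPM in binucleated E18.5 libraries. At P7 it was at 14.98, 13.1 and 13.6 CPM in mononucleated but 4.59, 2.23 and 4.40 CPM in binucleated libraries. The binucleated P7 libraries lay well below the mononucleated ones, and the lowest of them overlapped the adult range of 0.622 to 2.24 CPM.

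The Cdc25 phosphatases differed among themselves. Cdc25a, which also acts at the entry into S phase, was at 30.1, 28.6 and 36.5 CPM in mononucleated and 12.5, 30.7 and 29.2 CPM in binucleated E18.5 libraries. The lowest of these 6 values belonged to the library that stood apart. At P7 Cdc25a was at 26.96, 32.0 and 23.3 CPM in mononucleated and 18.1, 16.0 and 17.1 CPM in binucleated libraries, and adult libraries ranged from 9.54 to 17.7 CPM. Cdc25b, a phosphatase linked to the first activation of Cdk1 at the centrosome, was at 28.0 to 36.2 CPM in mononucleated and 34.2 to 52.1 CPM in binucleated E18.5 libraries. It ranged from 4.03 to 6.12 CPM over all 6 P7 libraries and from 0.0591 to 0.823 CPM over the adult ones. Cdc25c, which amplifies Cdk1 activation at mitosis, was at 14.4, 15.6 and 24.2 CPM in mononucleated and 39.7, 35.7 and 35.3 CPM in binucleated E18.5 libraries. Its P7 level was 4.34, 4.24 and 3.96 CPM against 6.86, 6.45 and 5.13 CPM, so it was the one member whose binucleated libraries all lay above the mononucleated ones at both younger ages. Adult Cdc25c gave 3, 0 and 1 reads in mononucleated and 1, 0 and 0 reads in binucleated libraries.

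Plk1, the Polo-like kinase of mitosis, was at 24.7, 30.4 and 54.3 CPM in mononucleated and 58.1, 73.1 and 80.5 CPM in binucleated E18.5 libraries. The P7 libraries stood at 14.6, 11.9 and 15.1 CPM against 10.7, 7.82 and 7.04 CPM. The classes did not overlap at either age, and their order turned between the ages. In the adult it gave 0, 3 and 0 reads in mononucleated and 0, 0 and 3 reads in binucleated libraries, which a floor of 3 reads cannot tell from 0.

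The class difference was tested first within E18.5. There 8 of the 10 members had a higher mean in binucleated cells, and the median log2 difference was 0.84, against -0.01 over all genes. None of the 10 passed the test over all genes (limma, Benjamini-Hochberg adjusted p under 0.05), where 0.739% of all genes were called higher. At an unadjusted p under 0.05 there were 3, the cyclins Ccna2, Ccnb1 and Ccnb2, against 13.9% of all genes. Ccnb1 had the largest difference, 1.47 ± 0.41 on the log2 scale (SE), a 2.77-fold higher mean, with a limma adjusted p of 0.145. Ccna2 differed by 0.93 ± 0.31 (SE; limma adjusted p = 0.226) and Ccnb2 by 1.05 ± 0.40 (SE; limma adjusted p = 0.277). Cdc25c, Plk1 and Cdk1 differed by 1.07, 1.02 and 0.75 on the log2 scale, and Pkmyt1 and Cdc25b by 0.47 and 0.34. Wee1 and Cdc25a were the 2 with a lower mean, by -0.26 and -0.50. In 7 members all 3 binucleated libraries lay above all 3 mononucleated ones, as in 6.91% of all genes.

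Other fits gave other counts at E18.5. With voom, which weights each recovered count by its precision, 5 members passed as higher: Ccna2, Ccnb1, Ccnb2, Cdc25c and Plk1, with limma adjusted p from 0.000109 for Ccnb1 to 0.0252 for Plk1. In that fit 1.63% of all genes were called higher. With only the 6 libraries of E18.5, no member and no other gene passed. Without binucleated replicate 1, Cdc25a differed by -0.08, Wee1 by 0.01 and Ccnb1 by 1.52. Differences smaller than in the full fit were those of Cdk1 (0.56), Ccnb2 (0.84) and Cdc25c (1.015). Larger ones, as for Ccnb1, were those of Ccna2 (0.99), Pkmyt1 (0.62), Cdc25b (0.49) and Plk1 (1.155). Ccnb1 passed without mononucleated adult replicate 1 (limma adjusted p = 0.0154). Under quantile normalization the genes called at E18.5 were 84 higher and 29 lower, against 89 and 8 as deposited, and Ccnb1 had a limma adjusted p of 0.0695.

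**Figure D2:**
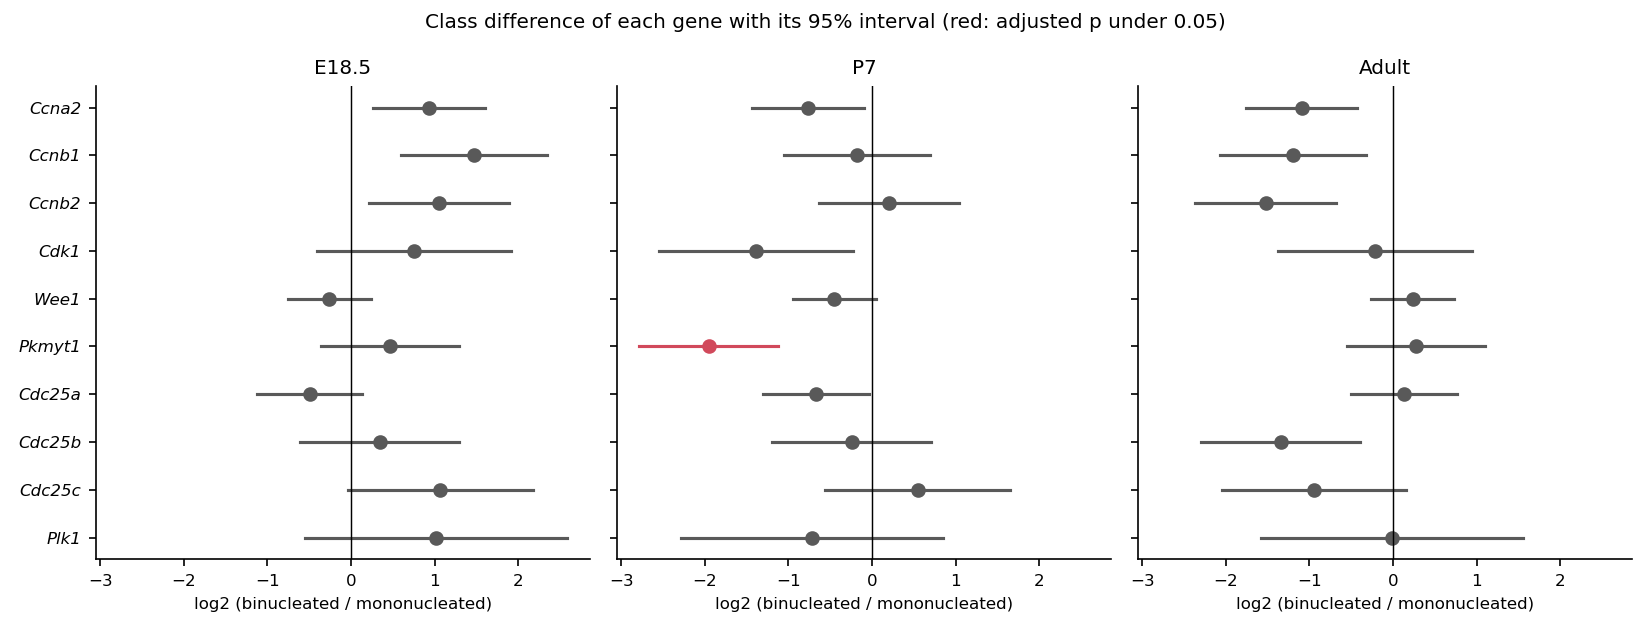
Difference between binucleated and mononucleated cells for each gene at the 3 ages, on the log2 scale, with its 95% interval (limma, 3 libraries per group); red marks a call over all genes. Most points lay above 0 at E18.5 and below 0 at P7, and the single call was Pkmyt1 at P7, at -1.96.

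At P7 the picture turned. Of the 10 members 8 had a lower mean in binucleated cells, with a median log2 difference of -0.56, against 0.02 over all genes. Pkmyt1 passed the test: it was lower in binucleated cells by 1.96 ± 0.39 on the log2 scale (SE), 3.88-fold, with a limma adjusted p of 0.0114. This 1 of 10 stands against 2.06% of all genes called lower at P7. The call held in 15 of the 18 fits that left out 1 library, but fits without an E18.5 or adult library leave the P7 difference itself unchanged. Of the P7 libraries, it was lost without mononucleated replicate 1 (limma adjusted p = 0.0559), mononucleated replicate 3 (0.0515) or binucleated replicate 2 (0.0779). It was kept without mononucleated replicate 2 or binucleated replicate 1 or 3. Cdk1 had the next largest difference, -1.39 ± 0.55 (SE; limma adjusted p = 0.329). The fit took 1 spread per gene from all 6 groups. The SE of Cdk1 was therefore 0.55 in the adult too, where its libraries held 3 to 23 reads. Then came Ccna2 with -0.77, Plk1 with -0.71, Cdc25a with -0.67, Cdc25c with 0.54 in the other direction and Wee1 with -0.45. Cdc25b, also counted as lower, differed by -0.24, and by 0.004 under quantile normalization. The B cyclins differed little, Ccnb1 by -0.18 and Ccnb2 by 0.21, with 95% intervals of -1.05 to 0.69 and -0.63 to 1.04. In 6 members, Ccna2, Cdk1, Wee1, Pkmyt1, Cdc25a and Plk1, all binucleated P7 libraries lay below all mononucleated ones, as in 14.7% of all genes. In Cdc25c they all lay above, as in 9.84% of all genes.

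With only the 6 libraries of P7, 4 members passed as lower: Pkmyt1 (limma adjusted p = 0.0045), Cdk1 (0.000955), Ccna2 (0.0131) and Cdc25a (0.037), against 4.61% of all genes. With voom, 3 passed: Pkmyt1 (limma adjusted p = 0.000987), Cdk1 (0.00242) and Ccna2 (0.0173), against 2.95% of all genes. Of the markers of other cells at P7, 3 of 11 fibroblast and 1 of 6 leukocyte markers were lower in binucleated cells, against 2.06% of all genes. None of 12 endothelial markers passed. The summed fibroblast markers were at 85.4 to 201.4 CPM in mononucleated and 52.8 to 69.0 CPM in binucleated P7 libraries, and the leukocyte markers at 15.05 to 25.9 CPM against 2.36 to 4.79 CPM. Laptm5 and C1qb were at 0 in all mononucleated and C1qc in all binucleated P7 libraries. The part of these cells in the class difference at P7 was not tested.

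Whether the class difference itself changed between E18.5 and P7 was tested with an interaction term. All 10 members had a negative term, with a median of -1.25 on the log2 scale, against 0.00 over all genes. Pkmyt1 alone passed, at -2.42 ± 0.55 (SE; limma adjusted p = 0.0297), where 2.10% of all genes were called lower. Its term was called in 10 of the 18 fits that left out 1 library, with limma adjusted p from 0.00785 to 0.0746. The 8 lost fits each left out a library of E18.5 or P7: any of the 3 mononucleated libraries of either age, or binucleated replicate 2 of either age. The fits without an adult library left the term itself unchanged, and all of them kept the call. Ccna2 followed at -1.70 ± 0.44 (SE; limma adjusted p = 0.0569), and it passed without binucleated E18.5 replicate 1 (0.045), mononucleated adult replicate 2 (0.028) or 3 (0.0253), or binucleated adult replicate 3 (0.0348). Ccnb1 passed without mononucleated adult replicate 1 (0.0335). Cdk1 had a term of -2.15, Plk1 of -1.74 and Ccnb1 of -1.65. The terms of Wee1 and Cdc25a, -0.19 and -0.18, were the smallest. With 1 library left out they ran from -0.46 to 0.04 for Wee1 and from -0.60 to 0.05 for Cdc25a, so their sign was not stable. With only the libraries of both ages and with voom, the same 5 members passed as lower: Ccna2, Ccnb1, Cdk1, Pkmyt1 and Plk1. All genes called lower were 2.17% with only those libraries and 3.21% with voom.

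**Figure D3:**
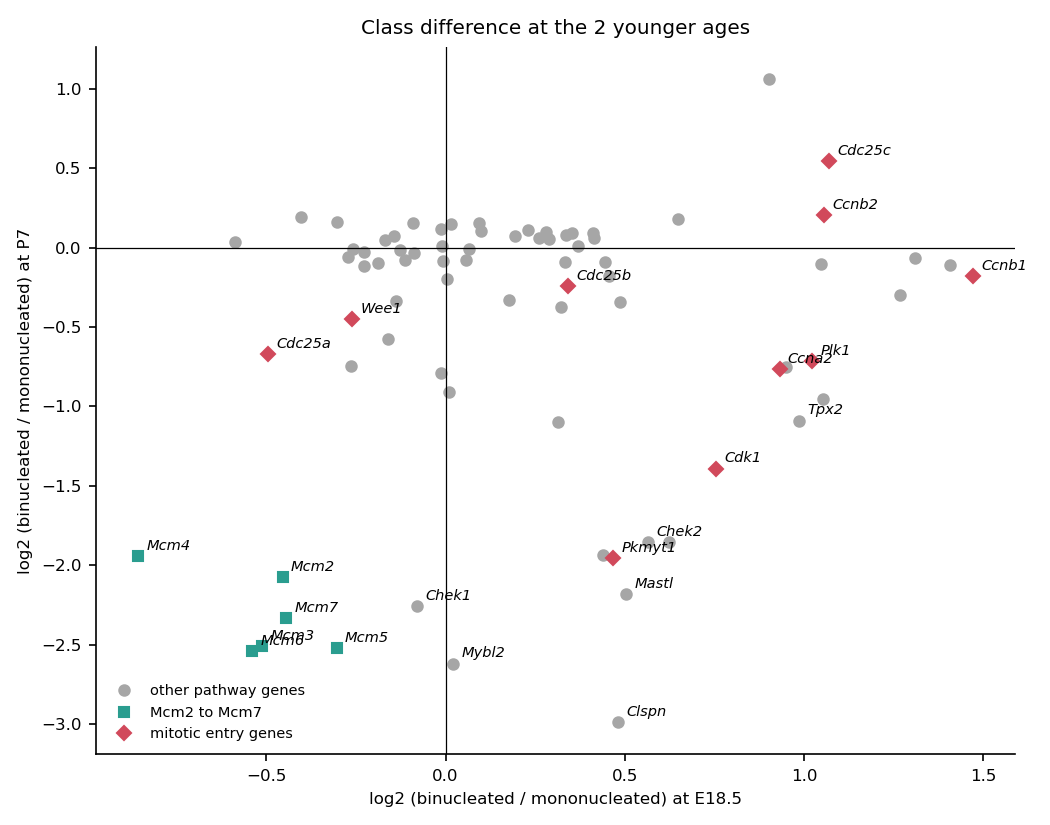
Class difference at P7 against that at E18.5, on the log2 scale, for the 10 mitotic entry genes (red diamonds), 61 other genes of the pathway (grey) and Mcm2 to Mcm7 (green). The cyclins, Cdk1, Pkmyt1, Plk1, Cdc25b and Cdc25c lay to the right of 0, and the 6 Mcm genes lay to the left of 0 and below -1.9. Pathway genes are named where they passed the test at P7.

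In the adult, none of the 10 members differed between classes by the test, where 0.0830% of all genes were called lower and 0.00830% higher. At an unadjusted p under 0.05 there were 4 (Ccna2, Ccnb1, Ccnb2 and Cdc25b), against 2.50% of all genes, and voom called 0. The reads were few. Ccna2 gave 12, 15 and 6 reads in mononucleated and 4, 3 and 8 in binucleated libraries, a ratio of 2.21 with an exact 95% counting interval of 1.17 to 4.39. Ccnb1 gave 2, 9 and 6 against 2, 1 and 3 reads (ratio 2.85, interval 1.07 to 8.83), and Ccnb2 3, 9 and 5 against 1, 1 and 3 (ratio 3.42, interval 1.21 to 11.9). These intervals cover counting error only, and the libraries of the classes overlapped for all 3 cyclins. Cdc25b gave 15, 8 and 7 against 1, 5 and 7 reads, and it was the 1 member whose binucleated adult libraries all lay lower in CPM, as in 3.74% of all genes. Cdk1 gave 9, 23 and 5 against 3, 18 and 12 reads, a ratio of 1.13 (interval 0.687 to 1.86). Without mononucleated replicate 1, Ccnb1 passed as lower in binucleated adult cells (limma adjusted p = 0.0215). The change of the class difference from P7 to the adult was called in none of the 10, against 0.208% of all genes called higher. There 2 members, Ccnb2 and Pkmyt1, had an unadjusted p under 0.05, against 4.71% of all genes, and voom called 0.

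The changes between E18.5 and P7 were also tested within each class, and the interaction given above is the test of their difference. In mononucleated cells 5 of 10 members fell, against 7.84% of all genes. Cdc25b fell by 2.60 ± 0.45 on the log2 scale (SE; limma adjusted p = 0.000592), 6.08-fold, and Cdc25c by 2.06 ± 0.52. Ccnb2 fell by 1.81 ± 0.40, Ccnb1 by 1.49 ± 0.41 and Ccna2 by 1.22 ± 0.31. Cdk1 changed by -0.14, Wee1 by 0.26, Pkmyt1 by 0.28 and Cdc25a by -0.21, and none of these passed. Plk1 differed by -1.32 without passing (limma adjusted p = 0.247), and it passed with voom (0.00222). With the replicate block of the P7 and adult libraries, 3 of the 5 still passed, and Ccna2 (limma adjusted p = 0.107) and Ccnb1 (0.07) did not. Without mononucleated E18.5 replicate 3, 2 passed, since Ccna2 (0.0579), Ccnb1 (0.0753) and Cdc25c (0.0507) did not. Ccnb1 also missed the threshold without mononucleated P7 replicate 1 (0.0595) or replicate 2 (0.0614).

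In binucleated cells 8 of 10 members fell from E18.5 to P7, against 17.7% of all genes. Cdc25b fell by 3.19 ± 0.45 on the log2 scale (SE; 9.14-fold; limma adjusted p = 5e-05), Ccnb1 by 3.15 ± 0.41 and Plk1 by 3.06 ± 0.74. Ccna2 fell by 2.92 ± 0.31, Ccnb2 by 2.66 ± 0.40, Cdc25c by 2.59 ± 0.52, Cdk1 by 2.28 ± 0.55 and Pkmyt1 by 2.14 ± 0.39. Wee1 changed by 0.07 and Cdc25a by -0.39, and neither passed. Without binucleated E18.5 replicate 1, the library that stood apart, Cdc25a passed as well, at -0.81 (limma adjusted p = 0.0104). The E18.5 binucleated libraries are also those with the higher levels of other cells' markers given above, and their part in the fall was not tested.

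**Figure D4:**
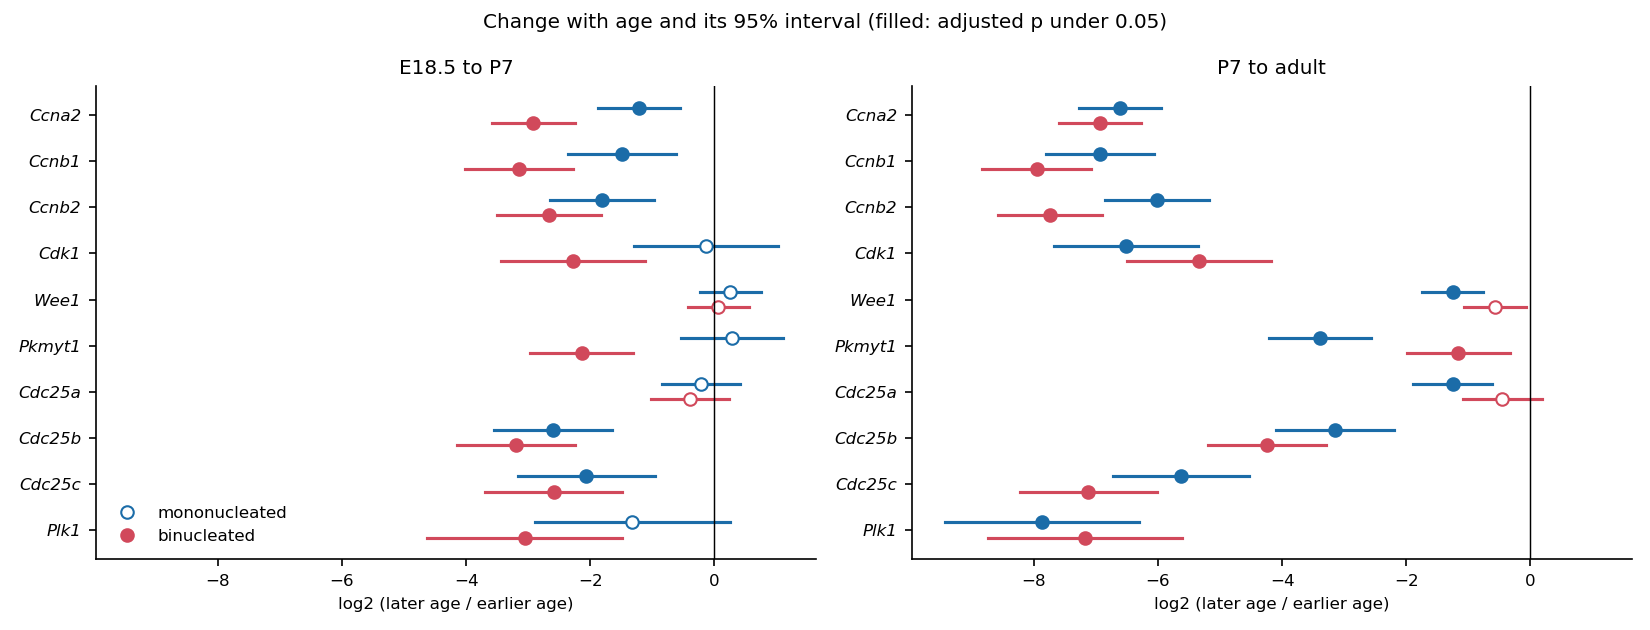
Change of each gene from E18.5 to P7 and from P7 to the adult on the log2 scale, with its 95% interval (limma), in mononucleated (blue) and binucleated (red) cells; filled points passed the test over all genes. From E18.5 to P7, 5 genes in mononucleated and 8 in binucleated cells were filled; from P7 to the adult, 10 and 8 were.

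From P7 to the adult all 10 members fell in mononucleated cells, against 22.3% of all genes, and 8 fell in binucleated cells, against 19.7%. Markers of other cells moved across the same contrast: 11 of 12 endothelial markers were higher in mononucleated and 12 of 12 in binucleated adult cells. Their sum went from 11.2 to 26.4 CPM over all P7 libraries to 90.4 to 128.1 CPM over the adult ones. Leukocyte markers were higher in 5 of 6 and 4 of 6. For both lists the shares of all genes called higher were 19.1% in mononucleated and 17.3% in binucleated cells. The part of these other cells in the changes of the members was not tested. The cyclins, Cdk1, Cdc25b, Cdc25c and Plk1 were left with 0 to 23 reads per adult library. Summed over libraries, Ccna2 was 96.1-fold lower in mononucleated adult cells than at P7 (exact 95% counting interval 68.3 to 139.8) and 126.2-fold lower in binucleated ones (76.4 to 225.9). Ccnb1 was 115.9-fold (72.2 to 199.2) and 296-fold (135.5 to 806.2) lower. Ccnb2 was 64.8-fold (40.4 to 111.6) and 261-fold (111.7 to 805.7) lower, and Cdk1 79.3-fold (57.4 to 112.9) and 34.4-fold (24.4 to 50.2). Plk1, with 3 reads left in each class, had a ratio of 225 in mononucleated (interval 76.8 to 1094) and 141.8 in binucleated cells (48.2 to 690.4). Cdc25c had 4 reads left in mononucleated cells, a ratio of 51.5 (19.9 to 190.3), and 1 in binucleated cells, a ratio of 304 (54.2 to 12050).

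Cdc25b was 8.93-fold lower in mononucleated (6.14 to 13.4) and 17.7-fold lower in binucleated adult cells (10.2 to 33.7) than at P7. The summed counts of Pkmyt1 were 9.25-fold lower in mononucleated and 2.33-fold lower in binucleated cells, where its P7 and adult libraries overlapped. In the limma fit its log2 change was -3.39 ± 0.39 in mononucleated cells (SE; limma adjusted p = 3.39e-06). The limma change in binucleated cells, -1.16 ± 0.39 on the log2 scale, passed (limma adjusted p = 0.0273). It did not pass with that replicate block (0.0954), with quantile normalization (-0.77, 0.137) or with voom (0.0506). Nor did it without any of 4 libraries, P7 binucleated replicates 1 and 3 and adult binucleated replicates 1 and 2 (0.0727 to 0.111).

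Wee1 and Cdc25a stayed readily measured in the adult. Wee1 gave 225 to 474 and Cdc25a 138 to 308 reads per library. In mononucleated cells Wee1 fell from P7 to the adult by 1.25 ± 0.23 on the log2 scale (SE; limma adjusted p = 0.00041) and Cdc25a by 1.25 ± 0.30 (0.00295). In binucleated cells Wee1 changed by -0.57 ± 0.23 (limma adjusted p = 0.0684) and Cdc25a by -0.45 ± 0.30 (0.261). Wee1 passed in binucleated cells with only the libraries of both ages (0.0127), and without binucleated E18.5 replicate 1 (0.0181) or 3 (0.0442). Set against E18.5, all 10 members were lower in mononucleated adult cells, against 27.7% of all genes. In binucleated cells 9 were, all but Wee1 (-0.50; limma adjusted p = 0.0773), against 29.4% of all genes. Cdc25a, at -0.84 there (0.024), missed the threshold with quantile normalization (0.0575), with only the libraries of both ages (0.145), and without binucleated E18.5 replicate 2 or 3 or binucleated adult replicate 1 or 2 (0.0791 to 0.11). Wee1 passed without binucleated E18.5 replicate 1 (-0.77, 0.00432).

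Ratios between members within a library do not depend on its scaling. They are log2 ratios of counts, not corrected for length, so they are read across libraries only. Cdk1 relative to Ccnb1 averaged -0.78 ± 0.14 (SD, n = 3) in mononucleated and -1.502 ± 0.43 in binucleated E18.5 cells. At P7 it was 0.58 ± 0.12 and -0.64 ± 0.25. The classes did not overlap at either age, and relative to Ccnb1 the binucleated cells held less Cdk1 transcript at both. Pkmyt1 relative to Wee1 was -1.87 ± 0.35 in mononucleated and -1.14 ± 0.29 in binucleated E18.5 cells, and -1.84 ± 0.25 and -3.35 ± 0.67 at P7. Its order between the classes turned from E18.5 to P7, with no overlap at either age. In the adult it was near -4 in both classes, at -3.98 ± 0.55 and -3.94 ± 0.53. Ccna2 relative to Ccnb2 overlapped between classes at E18.5, and at P7 it was 1.53 ± 0.05 in mononucleated and 0.55 ± 0.18 in binucleated cells. Cdc25a relative to Cdc25c was 0.84 ± 0.24 against -0.72 ± 0.82 at E18.5 and 2.70 ± 0.19 against 1.48 ± 0.23 at P7, without overlap. Of 8 pairs computed, Wee1 relative to Cdc25a overlapped between classes at every age, and Cdk1 relative to Ccna2 at E18.5 and in the adult. None of the 8 separated the classes in the adult. With 3 libraries against 3, an exact two-sided permutation test cannot go below 0.1, the p that each of these differences without overlap reached.

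**Figure D5:**
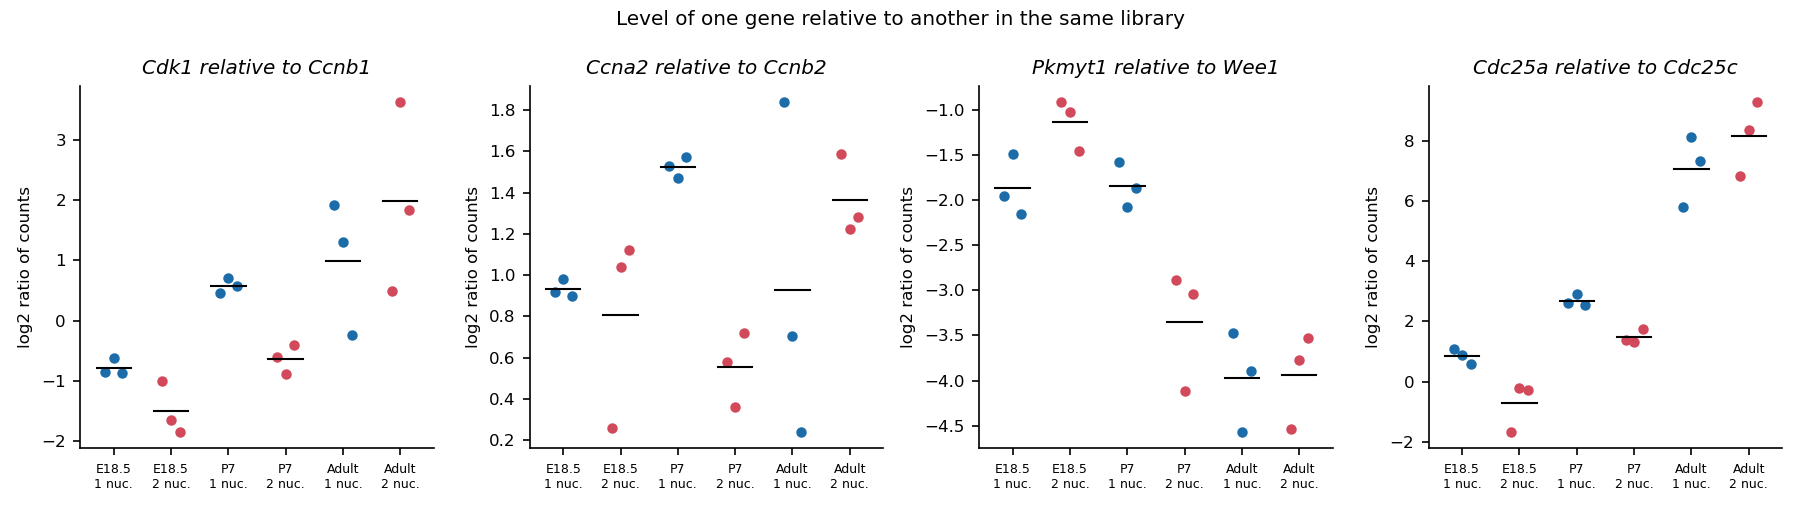
Log2 ratio of the counts of 2 genes in the same library, for 4 of the 8 pairs computed; points are libraries (blue, mononucleated; red, binucleated) and bars are means of 3. At P7 these 4 pairs separate the classes without overlap, in the adult none does, and Pkmyt1 relative to Wee1 stood at -3.35 on average in binucleated P7 cells.

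Across the 18 libraries the members fell into a tight group and a loose one. Ccnb1 and Ccnb2 had a Pearson correlation of 0.997 on the deposited log2 scale, Ccna2 and Ccnb1 0.994, Ccna2 and Plk1 0.989 and Cdk1 and Plk1 0.980. Wee1 correlated with the other members at 0.603 to 0.853, and most closely with Cdc25a. All libraries share the large step between P7 and the adult, so these values describe 6 groups more than 18 independent points. The 5 genes most like each member over the 18 libraries were listed. Hmmr and Knstrn, both spindle proteins, were among the 5 nearest genes of 3 members each. Tpx2, an activator of Aurora A, was nearest to Ccna2 (0.996), and Kif2c, of the kinesin family, to Plk1 (0.994). Cdca3 was nearest to Cdc25c (0.988) and Limd2 to Cdk1 (0.988). For Pkmyt1 the nearest were Brip1 (0.966), a DNA helicase of repair, and Nrm (0.963), and the replication checkpoint kinase Chek1 was among its 5 nearest at 0.959. Those of Cdc25a were Usp1 (0.950) and Fanci (0.942), both of the Fanconi repair pathway. Nearest to Wee1 was Gpc2 (0.925), a glypican, and to Cdc25b Sfrp1 (0.985), a secreted Wnt modulator.

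Around the switch, 61 of 63 listed pathway genes were measured. These cover transcription of its genes, the Cdk-activating kinase, Aurora A, Greatwall, the anaphase-promoting complex (APC/C) and checkpoint control. At E18.5 none differed between classes by the test, while 11 had an unadjusted p under 0.05, against 13.9% of all genes. At P7 6 were lower in binucleated cells, against 2.06% of all genes. Their median class difference was 0.18 at E18.5 and -0.08 at P7 on the log2 scale. The 6 were Clspn, the mediator of Chek1 activation (-2.99 ± 0.43, SE; limma adjusted p = 0.000725), Mybl2, the B-Myb subunit that binds MuvB (-2.62 ± 0.54), and Chek1 (-2.26 ± 0.31). The others were Mastl, the Greatwall kinase that restrains the phosphatase opposing Cdk1 (-2.18 ± 0.39), Chek2 (-1.86 ± 0.45) and Tpx2 (-1.09 ± 0.25). Mybl2 was at 6.34, 6.62 and 7.33 CPM in mononucleated and 0.858, 1.12 and 1.30 CPM in binucleated P7 libraries, so the groups lay far apart. Foxm1, the forkhead factor of the same genes, was at 16.9 CPM or more in mononucleated and 8.50 CPM or less in binucleated P7 libraries (-1.10 ± 0.67, SE; limma adjusted p = 0.711). None of 19 genes of the APC/C and its regulators passed at P7, and 1 had an unadjusted p under 0.05, against 1210 of all 12048 genes.

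From E18.5 to P7, 5 of 61 pathway genes fell and 1 rose in mononucleated cells, and 23 fell and 3 rose in binucleated cells. Of all genes 7.84% fell and 10.7% rose in mononucleated and 17.7% fell and 18.2% rose in binucleated cells. Those that rose were Gadd45a in mononucleated, and Ensa, Anapc4 and Btrc in binucleated cells. From P7 to the adult, 29 fell and 4 rose in mononucleated and 25 fell and 5 rose in binucleated cells, with medians of -0.35 and -0.36 against -5.82 and -6.14 for the members. Of all genes 22.3% fell and 19.1% rose in mononucleated and 19.7% fell and 17.3% rose in binucleated cells. Cdc20, the mitotic activator of the APC/C, fell by 7.02 ± 0.55 in mononucleated and 6.31 ± 0.55 in binucleated cells (SE, log2 scale). Fzr1, its partner activator in G1, changed by 0.06 and 0.18 without passing. Ensa, a Greatwall substrate, rose by 0.76 ± 0.10 and 0.66 ± 0.10, and Gadd45a, a stress-induced inhibitor of Cdk1, by 2.36 ± 0.38 and 2.45 ± 0.38.

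The replicative helicase genes Mcm2 to Mcm7 served for comparison, as genes of S phase. All 6 were lower in binucleated P7 cells, against 2.06% of all genes. Their median was -2.42 on the log2 scale, while the members' median was -0.56. At E18.5 their median class difference was -0.48 with none called (1 had an unadjusted p under 0.05, against 13.9% of all genes), and the members' was 0.84. In mononucleated cells none of the 6 passed between E18.5 and P7 (0 also at an unadjusted p under 0.05, against 30.8% of all genes), where 5 of the 10 members fell. In binucleated cells all 6 fell, against 17.7% of all genes.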

How the data were processed

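Sorted mouse cardiomyocytes were profiled by RNA sequencing of 18 libraries, made with a TruSeq stranded mRNA kit and a SMARTer amplification kit per the labels' protocols. The submitters' processing notes name STAR, limma and genome build mm9; of the counter, the annotation and any gene filter, nothing is stated in those sources. The authors deposited log2 values for 12048 genes, 1 table per library. In each library they had the form log2 of a whole count plus 0.5, plus 1 constant; 100% of values gave whole counts within 0.001. The constant is not stated, so levels are given as recovered counts or as CPM, scaled with the factors the deposited values imply. Per-kilobase levels use GENCODE M21 exon lengths.

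The deposited log2 values were fitted with limma 3.58.1 (R 4.3.3): means of 6 groups, 18 libraries, 12 residual degrees of freedom, empirical Bayes with an intensity trend, 11 contrasts, two-sided, Benjamini-Hochberg adjusted over all 12048 genes within a contrast, threshold 0.05. Each gene had 1 spread estimated from all 6 groups. Its SE at E18.5 and P7 thus includes the scatter of its adult libraries, also where reads were few. An offset of 0.5 makes log2 changes of genes with few counts depend on it, so ratios of summed counts with exact 95% intervals (Python 3.11.15, scipy 1.17.1) are given for the adult. Intervals and the floor of 3 reads cover counting error only, since amplified reads carry no molecular identifiers. Nothing says that replicates are separate animals: p-values therefore reflect only how these samples scatter, and that scatter may be technical. Every pair of replicates differed beyond counting noise (chi-square divided by its degrees of freedom was at least 13.8) and was counted as separate. Same-numbered libraries of the 2 classes deviated together at P7 (correlations 0.182, 0.191 and 0.236) and in the adult (0.261, 0.264 and 0.327). At E18.5 these correlations were lower (0.0879, 0.0545 and 0.158), yet above those of all differently numbered pairs (at most 0.00177). Only at P7 and in the adult did all same-numbered pairs exceed 0.1, so a replicate block was fitted there. No block was fitted within E18.5 alone, and the main fit had none at any age. The fit was tested on simulated data.

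Symbols were matched for 11927 identifiers and 121 stayed without one. All 10 members are named, and pathway genes by the lists and the size of their change. Members and lists were chosen with earlier results of these data known. Alternatives were a replicate block, quantile normalization, voom on recovered counts, no trend, a filter of 10 counts in 3 libraries, only the libraries compared, and leaving out each library. Proteins were not analysed here.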

Additional observations from a re-analysis of the deposited data

Results flagged for a closer look

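In 1 of the 10 members and 5 of 61 pathway genes the class difference itself changed between E18.5 and P7, by the interaction term of the limma fit over all genes, in which 2.10% of all genes were called lower and 0.232% higher. Among the mitotic entry genes this was Pkmyt1, with a term of -2.42 on the log2 scale (95% interval -3.59 to -1.25). The call held in 10 of 18 fits with 1 library left out. Every fit that lost it left out a library of E18.5 or P7, and leaving out an adult library does not change the term itself. The 5 pathway genes were Clspn with -3.47, Mastl with -2.69, Chek1 with -2.18, Tpx2 with -2.08 and Cks1b, an adaptor of Cdk1, with -1.70. In all 6 binucleated cells stood lower relative to mononucleated cells at P7 than at E18.5.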

How the results depend on the processing

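Counts are of the 10 members past the threshold. For the class difference at E18.5 voom called 5, against 0. For the class difference at P7 voom called 3 and the fit with only the libraries compared called 4, against 1. For the change of the class difference from E18.5 to P7 quantile normalization called 2, voom 5 and the fit with only the libraries compared 5, against 1. From E18.5 to P7 in mononucleated cells the replicate block at P7 and in the adult left 3 of 5, since Ccna2 and Ccnb1 were lost, and apart from Pkmyt1 between P7 and the adult in binucleated cells it changed no other member's call. A replicate block at all ages gave the same counts as no block. That block had 1 effect per replicate number, shared by all ages, so it does not model pairing within an age. Leaving out 1 library at a time gave 0 to 1 at E18.5, at P7 and in the adult between classes. It gave 2 to 5 and 8 to 9 from E18.5 to P7 in mononucleated and binucleated cells, 10 and 7 to 9 from P7 to the adult, and 10 and 8 to 10 from E18.5 to the adult. It gave 0 to 2 for the change of the class difference from E18.5 to P7 and 0 for that from P7 to the adult. Over 2750 values of members under alternatives, 2686 kept their side of the threshold, 31 lost a call and 33 gained one. No called value changed sign, and 17 that were called in neither fit did. The filter on low counts kept all 12048 genes, so its values repeat the main fit. In comparisons of 2 groups, most fits without 1 library left out one from another group, which leaves the estimate unchanged. The 2686 therefore overstate how far the calls were put to the test. The causes of the changed calls were not tested. In the adult, depth limits Plk1 and Cdc25c, at 0 to 3 reads per library.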
